A study of Mus musculus with 2 samples.

Results

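Cohesin, CTCF and SmcHD1 are proteins that fold and organise chromosomes, and 8 of the 22556 genes in the count table encode them here. Their rows were taken by symbol and not by a cutoff on their values: Smc1a, Smc3, Rad21, Stag1 and Stag2 for the cohesin ring and its accessory subunits, Nipbl for the loader, Ctcf, and Smchd1. Each symbol matched exactly 1 row. Polyadenylated RNA was sequenced from 2 replicates of a single group, uninduced mouse embryonic stem cells (mESCs) of the iXist-ChrX-Dom line, which the study used to grade X-linked genes by their expression before silencing. This female line of strain Dom/129S x Cast carries a TetOn promoter in place of the endogenous Xist promoter on its Dom/129S allele. Both libraries were untreated (0 h), so the series holds no contrast between conditions. Both came from the same engineered line, grown on inactivated fibroblast feeders that were removed by pre-plating. Nothing in the labels says that the replicates were separate cultures, so every spread given here is that between these libraries and may be technical.

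Cohesin is a ring that entraps DNA, holds sister chromatids together until anaphase and extrudes chromatin loops, and CTCF bound to its motif is where extrusion often stops. SmcHD1 is a noncanonical SMC protein with a GHKL-type ATPase domain, known for its enrichment on the inactive X chromosome and for its part in keeping X-linked genes silent. In mESCs with active X chromosomes, cohesin and CTCF act genome wide, and cohesin is also needed in every dividing cell.

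The labels give the cell type as "mESC to NPC", where NPC stands for neural precursor cell, and the ES cell identity of the libraries was checked on marker lists. All 10 ES cell markers reached 1 TPM (transcripts per kb of exonic length, scaled to the same sum in each library), against 1 of 7 neural precursor markers, 1 of 8 feeder fibroblast markers, 3 of 6 primitive endoderm markers and 0 of 4 Y-linked genes. The neural markers Sox1 and Olig2 and all 4 Y-linked genes had 0 counts. The summed level of the ES cell markers was 3755 CPM (counts scaled to the library total) in replicate 1 and 2963 CPM in replicate 2, that of the neural markers 9.82 and 8.04 CPM, that of the feeder markers 2.49 and 0.888 CPM, and that of the primitive endoderm markers 25.7 and 23.2 CPM. The libraries held 23716499 and 20275749 counts, which allows up to 0.126 and 0.148 CPM for a gene with a count of 0. Intervals and these limits cover counting error only. In bulk RNA, fewer cells of a type and less RNA per cell cannot be told apart.

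The genes lie on 6 chromosomes, and Smc1a and Stag2 are X-linked. On mm10, Smchd1 runs from 71344492 to 71475343 on the minus strand of chromosome 17, and its longest coding transcript has 48 exons. Ctcf lies at 105636537 to 105682922 on the plus strand of chromosome 8, with 12 exons. Smc1a lies at 152016427 to 152061973 on the plus strand of the X chromosome with 25 exons, and Stag2 at 42149411 to 42277186 on the same strand with 34 exons. Smc3 lies at 53600395 to 53645831 on the plus strand of chromosome 19 with 29 exons. Rad21 (51962603 to 51991760, 14 exons) and Nipbl (8289823 to 8444463, 47 exons) are on the minus strand of chromosome 15. Stag1, with 34 exons, spans 314923 bp of the plus strand of chromosome 9, from 100643622 to 100958544, of which exons make up 1.96%. No other listed gene overlaps any of the 8 on either strand. Of the 50-base words of their longest coding transcripts, none recurred in another transcribed locus for 7 of the genes, and 75 of 4802 words (1.56%) did for Smc3, most often with Gm11204. Stag1 and Stag2 shared no such word, so their fragments could be told apart.

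What these genes share in sequence is low GC content in the transcript. The median GC content of their longest transcripts was 42.4%, against 49.1% for 11784 expressed genes (at least 1 TPM by span length). All 8 lay below that median, from 38.1% for Stag2 to 46.9% for Smc1a. They were also long. Their median span was 87081 bp, against 19929 bp for genes of at least 1 TPM by span length, introns included. Their median exonic length was 5518.5 bp, against 3236 bp for genes of at least 1 TPM by exonic length. Promoter sequences from RefSeq (GRCm38.p6) matched 5 of the 8 genes, Smchd1, Ctcf, Smc1a, Smc3 and Stag1, but not Rad21, Stag2 or Nipbl. The dinucleotide CG, which reads the same on both strands, was counted in the 250 bases upstream of the start. It occurred 40 times for Ctcf, 33 times for Smchd1, 31 times for Stag1, 26 times for Smc3 and 16 times for Smc1a, against a median of 10 over 16598 promoters, 93.1% of which held at least 1. The median was 16 for the 8946 promoters of expressed genes and 3 for the other 7652, so Ctcf, Smchd1, Stag1 and Smc3 lay above the median of expressed genes and Smc1a at it. The Ctcf, Smchd1 and Smc3 windows, with the highest, the next and the lowest count among those clear of annotated exons, are shown 5′ to 3′ on the strand of the gene with each CG in capitals.
Ctcf (chr8:105636288-105636537, plus strand): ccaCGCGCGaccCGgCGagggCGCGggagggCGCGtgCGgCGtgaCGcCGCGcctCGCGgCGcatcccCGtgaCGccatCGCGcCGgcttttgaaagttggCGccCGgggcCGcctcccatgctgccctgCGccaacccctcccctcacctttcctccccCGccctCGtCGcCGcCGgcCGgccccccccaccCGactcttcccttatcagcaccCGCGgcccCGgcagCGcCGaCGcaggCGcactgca
Smchd1 (chr17:71475344-71475593, minus strand): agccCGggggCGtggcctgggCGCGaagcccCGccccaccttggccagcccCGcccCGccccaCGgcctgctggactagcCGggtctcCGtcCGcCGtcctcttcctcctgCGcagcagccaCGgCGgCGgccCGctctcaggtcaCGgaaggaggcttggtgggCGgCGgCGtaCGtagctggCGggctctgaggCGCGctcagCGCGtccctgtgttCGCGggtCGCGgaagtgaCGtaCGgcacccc
Smc3 (chr19:53600146-53600395, plus strand): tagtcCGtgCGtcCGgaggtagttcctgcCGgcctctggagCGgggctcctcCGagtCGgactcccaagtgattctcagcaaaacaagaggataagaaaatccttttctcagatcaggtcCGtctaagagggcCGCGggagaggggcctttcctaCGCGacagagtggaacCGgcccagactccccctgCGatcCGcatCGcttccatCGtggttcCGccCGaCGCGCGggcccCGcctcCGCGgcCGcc
The Ctcf window has 77.6% GC and the Smchd1 window 75.6%. The Smc3 window has 64.4% GC.

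All 8 genes were well expressed. Levels between genes are compared per length, and 2 lengths were used. The deposited length column covers the whole transcript span, introns included, and gives a TPM from the count table alone. The study computed TPM from this table, and which length it used is not given in the sources used here. The exonic length counts annotated exons alone, and the study's methods describe these libraries as poor in intronic reads. The counts themselves cover whole spans, so any intronic fragments also enter the exonic level. Their share was not measured. With exonic length the median of the 8 genes was 233 TPM, against 18.4 TPM for 12249 genes of at least 1 TPM. With span length it was 91.6 TPM against 13.5 TPM for 11877 genes. Together the 8 genes made up 0.344% of all counts in replicate 1 and 0.384% of those in replicate 2. The exonic levels differed 2.97-fold from the lowest to the highest gene and the span levels 13.9-fold.

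Of the SMC arms of the ring, Smc3 had 11752 and 10562 counts in replicates 1 and 2, which gave 322 and 360 TPM with exonic length (341 ± 26.8, SD, n = 2) and 174 and 206 TPM with span length (190 ± 22.2). Smc1a, which encodes the partner that pairs with SMC3 through the hinge, had 5750 counts (95% Poisson interval 5602 to 5901) and 3419 counts (3305 to 3536). Its exonic level was 163 and 121 TPM (142 ± 30.04), and its span level 85.1 and 66.4 TPM (75.8 ± 13.2). Smc1a was the only one of the 8 with the lower value in replicate 2 on every scale, and it had the lowest exonic level. Rad21 encodes the kleisin that closes the ring and is cut by separase at anaphase. It had 9219 and 9668 counts, 310 and 404 TPM with exonic length (357 ± 66.7) and 213 and 293 TPM with span length (253 ± 56.8). Its lower replicate lay below the lower replicate of Smc3 on the exonic scale and its higher replicate above, so the pair overlapped there, while Rad21 was higher in both replicates on the span scale.

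STAG1 and STAG2 are alternative subunits that bind RAD21, and each cohesin complex carries either one or the other. Stag2 had the most counts of the 8 genes, 17597 and 17953. That was 371 and 471 TPM with exonic length (421 ± 70.5) and 92.8 and 124 TPM with span length (109 ± 22.3). Stag1 had 7485 and 7291 counts, 161 and 195 TPM with exonic length (178 ± 24.1), but 16.0 and 20.5 TPM with span length (18.3 ± 3.16). The Stag1 level was thus 9.75 times as high on the exonic as on the span scale, the widest gap of the 8, and Rad21 had the narrowest at 1.41 times. Nipbl, whose protein loads cohesin and drives loop extrusion, had 12789 and 13061 counts, 181 and 229 TPM with exonic length (205 ± 34.5) and 55.8 and 74.8 TPM with span length (65.3 ± 13.4).

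Ctcf, the zinc finger protein that sets loop anchors, differed least of the 8 between replicates in CPM and in TPM. With the GC trend Smc3 differed least, and with DESeq2 size factors Smc1a did. Ctcf had 6827 and 6054 counts, 240 and 265 TPM with exonic length (252 ± 17.4) and 99.2 and 116 TPM with span length (107 ± 11.5). Smchd1 had 10254 and 9921 counts, 193 and 233 TPM with exonic length (213 ± 27.8) and 52.8 and 67.1 TPM with span length (60.0 ± 10.1). Smchd1 transcript was present in these cells with Xist uninduced, at the 91.4th percentile of expressed genes on the exonic scale and at the 78.2nd on the span scale. Within a library, the exonic level of Smchd1 was 0.806 and 0.879 times that of Ctcf and 0.600 and 0.646 times that of Smc3. With span length it was 0.532 and 0.581 times that of Ctcf and 0.303 and 0.326 times that of Smc3.

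**Figure D1:**
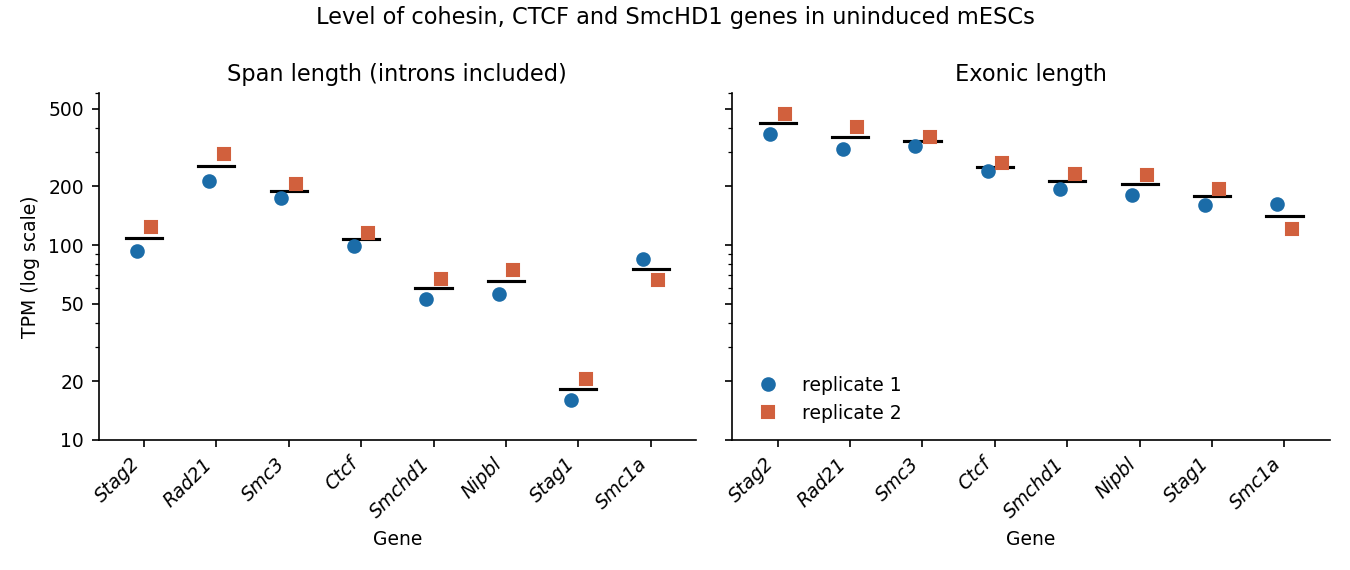
Level of each gene in TPM (log axis) with span length on the left and exonic length on the right, in the same gene order, where circles are replicate 1, squares replicate 2 and bars the mean (n = 2). The exonic levels lie between 121 and 471 TPM, while with span length Stag1 drops to 16.0 and 20.5 TPM, and Smc1a alone is lower in replicate 2.

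On the exonic scale the order ran Stag2, Rad21, Smc3, Ctcf, Smchd1, Nipbl, Stag1, Smc1a. Neighbours were set apart only where both replicates of one lay above both of the other, and on this scale the rule held for 2 of 7 pairs, Smc3 above Ctcf and Ctcf above Smchd1. Stag2, Rad21 and Smc3 overlapped from each to the next, as did Smchd1, Nipbl, Stag1 and Smc1a. Within each library, where the genes share depth and scaling, 5 of the 7 pairs kept this order in both, and the exceptions were Rad21 with Smc3 and Stag1 with Smc1a. On the span scale the order ran Rad21, Smc3, Stag2, Ctcf, Smc1a, Nipbl, Smchd1, Stag1, and 4 of 7 pairs were set apart, while 5 kept their order within both libraries. Stag1 was lowest and apart from Smchd1 on the span scale, but it overlapped Smchd1, Nipbl and Smc1a on the exonic scale. With 2 values against 2, an exact permutation test (two-sided) cannot give a p below 0.333, so the order was not tested. Among all expressed genes, 6 of the 8 lay above the 90th percentile on the exonic scale, all but Stag1 (89.6) and Smc1a (86.7). On the span scale only Rad21 (94.4) and Smc3 (92.3) did, and Stag1 was at 55.9.

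For its X-linked genes the study formed a low, a medium and a high group of equal size from their level before induction, and a grouping of this kind was made here over all X-linked genes of at least 1 TPM, so its boundaries are not those of the study. Stag2 ranked 127th and Smc1a 160th of 532 X-linked genes on the span scale, both in the high group, which began at 62.3 TPM. On the exonic scale Stag2 ranked 40th and Smc1a 121st of 530, again both in the high group, which began at 83.3 TPM. Smc1a had 66.4 TPM with span length in replicate 2, close to that boundary. Hdac8, the X-linked deacetylase that recycles SMC3, was in the low group on the span scale, at 3.29 TPM and rank 437, and in the medium group on the exonic scale, at 71.9 TPM and rank 198; it was picked from the lists after its values were seen.

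Ratios within a library, where the scaling of the library cancels, were steadier for some pairs than the levels themselves. Stag2 exceeded Stag1 on the exonic scale by a log2 ratio of 1.21 in replicate 1 and 1.27 in replicate 2 (1.24 ± 0.05, SD, n = 2), or 2.31- and 2.42-fold. Stag2 thus made up 69.8% and 70.7% of the summed Stag1 and Stag2 level (70.2% ± 0.684). On the span scale the log2 ratio was 2.57 and the share 85.6%, where the long Stag1 span is divided out. Without any length the log2 ratio was 1.27. Stag2 was the higher transcript on every scale and in both libraries.

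Smc1a lay below Smc3 on every scale, but the 2 libraries disagreed on how far. On the exonic scale the log2 ratio of Smc1a over Smc3 was −0.98 in replicate 1 and −1.58 in replicate 2 (−1.28 ± 0.42), which was the widest spread among the 4 ratios. Rad21 was level with Smc3 within the spread on the exonic scale, with log2 ratios of −0.06 and 0.17 (0.06 ± 0.16). On the span scale Rad21 was above Smc3 (0.40), and in CPM it was below (−0.24). Nipbl was below Smc3 on the exonic scale, with log2 ratios of −0.84 and −0.65 (−0.74 ± 0.13), and on the span scale (−1.55), but above it in CPM (0.21). The summed exonic level of Stag1 and Stag2 was 532 and 666 TPM (599 ± 94.6), above that of Smc3 in both libraries. The summed span level was 109 and 145 TPM (127 ± 25.4), below that of Smc3 in both. These are ratios of transcripts and carry no information on the protein subunits.

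**Figure D2:**
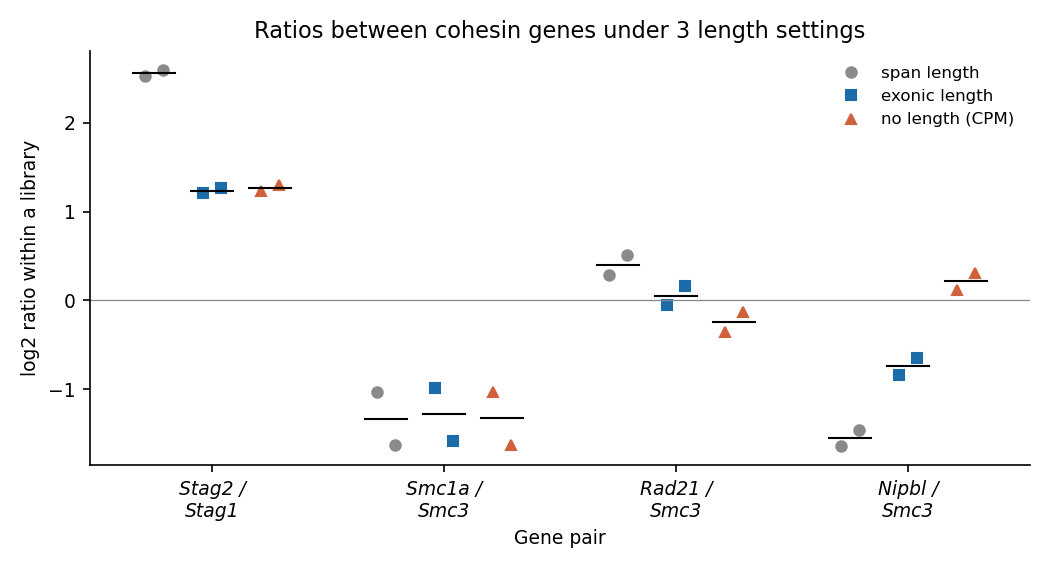
The log2 ratio of each gene pair within a library with span length (circles), exonic length (squares) and no length (triangles), where each marker is 1 replicate and bars are means (n = 2). Stag2 over Stag1 is 2.57 with span length and 1.24 with exonic length, and Nipbl over Smc3 changes sign between the length-based values (−1.55 and −0.74) and CPM (0.21).

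The only test that the design allows compares the 2 libraries. For each gene the counts were set against the library totals in a two-sided exact binomial test, with Benjamini-Hochberg adjustment over 14536 genes. Of the 8 genes, 7 differed at an adjusted p of 0.05, 6 higher and 1 lower in replicate 2, where 60.8% of all tested genes differed, 15.1% higher and 45.7% lower. The test passes more easily at high counts. Among the 1171 genes with at least the 9169 counts of Smc1a, the least counted of the 8, 88.0% differed, 63.8% higher and 24.3% lower. The 7 of 8 are therefore close to the share among genes counted as often, and are no result about these genes. Effective library sizes from TMM (trimmed mean of M values) shift every log2 ratio by 0.22. With them all 8 differed, 7 higher and 1 lower, against 57.7% of all genes, 27.0% higher and 30.8% lower. No share among genes counted as often was computed with TMM sizes, so the 8 are no result about these genes here.

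With library totals Smc1a differed most, with a log2 ratio of replicate 2 over replicate 1 of −0.52 (0.696-fold, adjusted p = 1.46e-63, exact binomial test). The size order depends on the scaling: with TMM sizes Smc1a was at −0.30 and Rad21 at 0.52, and with DESeq2 size factors Smc1a was at −0.21, nearest to 0 of the 8, and Rad21 at 0.61. Smc1a was the lowest and the only negative value under all 3 scalings. Rad21 was the highest of the other 7, at 0.29 (adjusted p = 1.70e-43), followed by Nipbl at 0.26, Stag2 at 0.26, Stag1 at 0.19, Smchd1 at 0.18 and Smc3 at 0.07 (adjusted p = 0.00047). Ctcf, at 0.05, did not pass the exact binomial test (adjusted p = 0.0620) with library totals. With TMM sizes it was 0.28 and passed. Across 9736 genes that had 50 counts or more in both libraries, the median log2 ratio was −0.17 and the quartiles −0.56 and 0.11. Smc1a was at the 27.2nd percentile of these ratios and the other 7 genes between the 69.5th and the 89.4th. The median of 452 X-linked genes was 0.03, between the values of Smc1a (−0.52) and Stag2 (0.26). Counting error was 0.746 to 1.71% of a count, and the coefficient of variation of the CPM between libraries ran from 2.59% for Ctcf to 25.4% for Smc1a. With library totals, 7 of the 8 genes thus differed by more than counting error, all but Ctcf.

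Transcript GC content moved with this difference. Over 9242 autosomal genes the Spearman correlation of log2 ratio and GC content was −0.65, given as a description across genes of the same 2 libraries. Rad21 and Ctcf lay above the trend, by 0.35 and 0.25 on the log2 scale, and Smc1a lay below it, by −0.29. Stag2 (−0.04) and Smc3 (−0.01) lay close to it, and Nipbl (0.18), Smchd1 (0.10) and Stag1 (0.09) slightly above. When the expected ratio was taken from the trend, 7 of the 8 passed the exact binomial test, 5 higher and 2 lower. The share was 45.6% of 14396 genes, 23.9% higher and 21.6% lower, and none was computed among genes counted as often. Smc3 did not pass (adjusted p = 0.848) and Stag2 turned from higher to lower (adjusted p = 0.0281). The part of GC content, or of the lower ES cell marker counts, in these differences was not tested. Of the 10 ES cell markers 1 was higher and 9 were lower in replicate 2 with library totals, and 3 and 7 with TMM sizes. Dppa5a fell most, from 2915 to 298 counts (log2 ratio −3.06, or −2.65 with the GC trend). Pou5f1, the ES cell factor OCT4, fell from 1129 to 142 counts (−2.76, or −1.99 with the GC trend). Nanog (−0.18) and Klf4 (−0.15) moved little, and Zfp42 was the 1 higher, at 0.05.

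**Figure D3:**
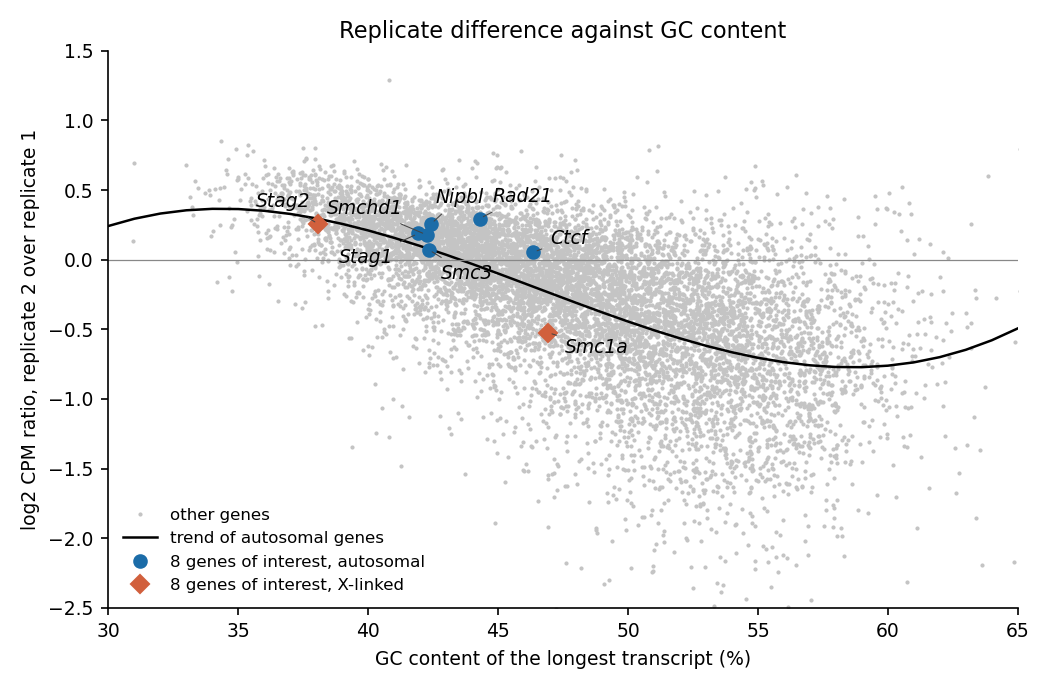
The log2 CPM ratio of replicate 2 over replicate 1 against the GC content (%) of the longest transcript, where grey points are other genes with 50 counts or more in both libraries, the line is the trend of autosomal genes, and coloured circles and diamonds are the autosomal and X-linked genes of the set. Smc1a (−0.52) lies below the line, Rad21 (0.29) and Ctcf (0.05) above it, and Stag2 (0.26) and Smc3 (0.07) close to it, and points beyond the axes are not drawn.

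The other genes that regulate or resemble cohesin were taken from 6 lists holding 39 genes, of which 36 reached a mean of 1 TPM on either length scale. The median of all 39 was 97.2 TPM with exonic length, below the 142 TPM of Smc1a, the lowest of the 8 on that scale. With span length it was 62.0 TPM, above the 18.3 TPM of Stag1, the lowest there. Of the 39 genes, 14 lay above Smc1a and 5 above Stag2 on the exonic scale. On the span scale 31 lay above Stag1 and 8 above Rad21, the lowest and the highest of the 8. The 5 above Stag2 on the exonic scale were Esco2, Smc4, Ncapg, Smc2 and Nsmce4a, of which Ncapg and Smc2 were named after their values were seen. In the replicate test 37 could be tested, and 17 were higher and 15 lower in replicate 2, beside the background shares above. With TMM sizes 22 were higher and 11 lower, and with the GC trend 15 and 11. The counts per list below are those with library totals unless another scaling is named.

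Among 8 loader, release and acetylation genes, all reached 1 TPM, 4 were higher, 2 lower and 2 not called in replicate 2. Esco2, an acetyltransferase that establishes cohesion in S phase, was highest at 1276 ± 311 TPM (SD, n = 2) with exonic length. It exceeded its paralog Esco1 6.54- and 6.40-fold, and 12.30- and 12.03-fold with span length. Mau2, the partner of NIPBL in the loader, was lowest at 26.8 ± 10.6 TPM, and Nipbl exceeded it 5.26-fold in replicate 1 and 11.9-fold in replicate 2 on the exonic scale, but 1.58- and 3.57-fold on the span scale. Wapl, which releases cohesin from DNA, had 371 ± 43.4 TPM, 1.89 and 1.75 times the level of Nipbl, and 2.72 and 2.53 times with span length. Cdca5, which encodes sororin, the antagonist of WAPL, fell from 831 to 214 counts (log2 ratio −1.73, adjusted p = 2.28e-65, exact binomial test), and was at −1.19 with the GC trend.

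Of the 4 protection and cleavage genes 2 were higher and 2 lower in replicate 2. Sgo2a, a shugoshin that shields cohesin at centromeres, was highest at 376 ± 94.3 TPM with exonic length, and Espl1, which encodes separase, lowest at 10.1 ± 2.20 TPM. Of the 5 meiotic genes, which include the CTCF paralog Ctcfl, 3 reached 1 TPM. Of the 4 that could be tested, 1 was higher and 2 were lower. Smc1b, the meiotic counterpart of Smc1a, had 86.1 ± 19.4 TPM with exonic length. Smc1a exceeded Smc1b 2.25-fold in replicate 1 and 1.21-fold in replicate 2, and on the span scale 3.86- and 2.07-fold. Ctcfl had 1 and 2 counts, at or under the limit that a count of 0 allows, and Rec8, the meiotic kleisin, had 60 and 24 counts (log2 ratio −1.08, adjusted p = 0.00287, exact binomial test). With the GC trend Rec8 was at −0.32 and did not pass the exact binomial test (adjusted p = 0.493).

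Condensin, the SMC complex that compacts mitotic chromosomes, was represented by 8 genes, all above 1 TPM, of which 4 were higher, 3 lower and 1 not called. Smc4 was highest at 1208 ± 279 TPM with exonic length, 3.14 and 3.90 times the level of Smc3, and 4.28 and 5.32 times with span length. Ncapd2 was lowest at 22.3 ± 13.4 TPM and fell from 1106 to 359 counts (log2 ratio −1.40). Of 8 SMC5/6 genes, whose complex acts in DNA repair, 7 reached 1 TPM, and 4 were higher, 2 lower and 1 not called in replicate 2. Nsmce4a was highest at 521 ± 40.9 TPM, and Nsmce1 fell from 271 to 90 counts (log2 ratio −1.36). With the GC trend Ncapd2 was at −0.73 and Nsmce1 at −0.76. Nsmce3, listed under its older symbol Ndnl2, had 0 counts in both libraries. It lies wholly inside Fam189a1 on the same strand, and the command in the file header sets no option to count fragments that overlap more than 1 gene, so this 0 was not read as a level.

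The last list held Lrif1, which encodes a binding partner of SmcHD1, and 5 other architectural DNA-binding factors. Of these 6 genes, 2 were higher and 4 lower in replicate 2 with library totals, and 3 and 3 with TMM sizes. Yy1 was highest at 321 ± 66.6 TPM with exonic length. Maz was lowest at 23.0 ± 20.3 TPM and fell from 778 to 145 counts (log2 ratio −2.19, or −1.59 with the GC trend), the largest replicate difference among the genes of the 6 lists that passed the test. Lrif1, named for its partner and outside the naming rule, had 67.5 ± 19.7 TPM, and Smchd1 exceeded it 3.61- and 2.86-fold. Over 45 tested genes of the lists, the 8 included, the Spearman correlation of log2 ratio and transcript GC was −0.77. Of 23 genes with up to 44% GC, 20 had the higher value in replicate 2, and of 10 above 50% GC, 9 had the lower. The correlation over 9242 autosomal genes ran the same way (−0.65). Shares of all genes in these GC ranges were not computed, so these counts are no result about the lists.

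**Figure D4:**
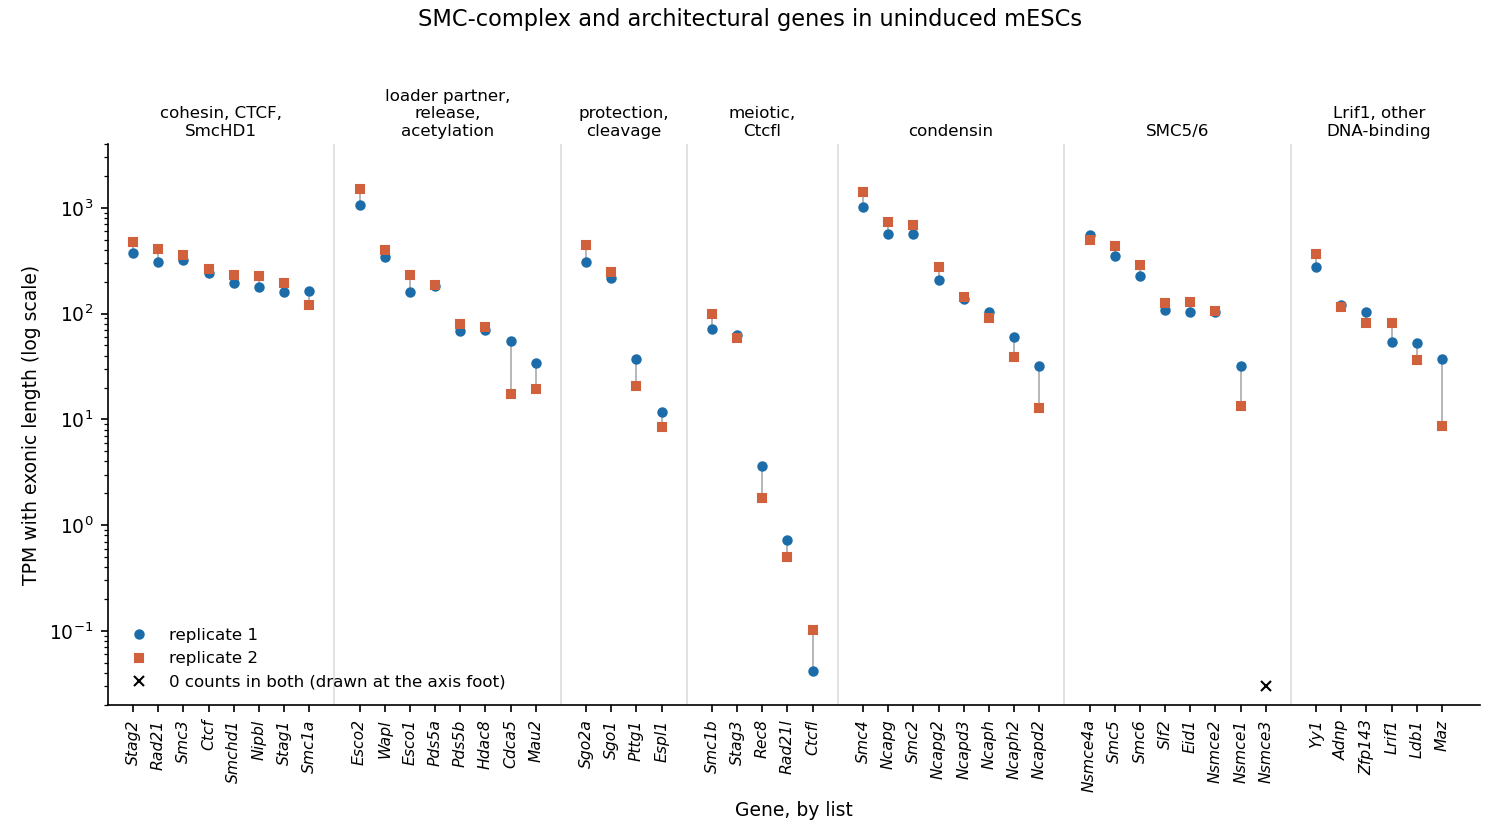
TPM with exonic length (log axis) of the 8 genes and of the 39 others by list, with circles for replicate 1, squares for replicate 2, and a cross at the axis foot for Nsmce3, which had 0 counts. The 8 genes span 121 to 471 TPM, Esco2 and Smc4 lie above them with means of 1276 and 1208 TPM, and Ctcfl is lowest among the genes with counts.

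The genes whose exonic levels were most like those of each of the 8 were found among 46 candidates, by the distance in log2(TPM + 1) over the 2 samples. Smchd1 and Nipbl were nearest to each other, at a distance of 0.10, followed by Sgo1 for Smchd1 (0.20) and Esco1 for Nipbl (0.16). Smc3 was nearest to Rad21 (0.18) and Wapl (0.18), and Rad21 to Sgo2a (0.13) and Wapl (0.14). Ctcf was nearest to Smc6 (0.16) and Sgo1 (0.16), Stag2 to Smc5 (0.12) and Wapl (0.26), and Stag1 to Pds5a (0.18) and Esco1 (0.26). Smc1a stood farthest from its nearest genes, Ncapd3 (0.35) and Adnp (0.44). With 2 samples, likeness here means a similar level and a similar step between the libraries and nothing more.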

How the data were processed

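Polyadenylated RNA of uninduced iXist-ChrX-Dom mESCs was analysed in 2 replicates, which were assigned by their sample titles. The deposited counts were produced by the authors in featureCounts, version 1.5.2 per the file headers, as fragments in reverse-stranded mode over transcript spans of an mm10 annotation of long RNAs. The submitters' processing notes also name Bowtie2 (2.3.2) and STAR (2.4.2a). How the mRNA libraries were aligned is not given in the sources used here. The labels carry a letter b that the column names lack, so columns were matched by the rest of the name.

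TPM was computed from the deposited counts with the deposited length column, which holds the transcript span. Which length the study used for its TPM is not given in the sources used here. Both replicates were averaged, as the study did. Exonic length (union of exons, GENCODE M21 basic) was matched for 98.1% of genes, 21240 by symbol and 887 by an older symbol. CPM used library totals. Library totals were 23716499 and 20275749 counts. Replicates were compared by a two-sided exact binomial test over genes with at least 10 counts, adjusted by Benjamini-Hochberg at 0.05. The test was tried on simulated Poisson counts, which vary by counting error alone, so the trial does not cover spread between replicates. The log2 ratio used CPM after adding 0.5 counts. The GC trend was a polynomial of degree 3. TMM factors came from edgeR (4.0.16, R 4.3.3) and size factors from DESeq2 (1.42.0); the edgeR biological coefficient of variation was 0.277 over 12648 genes. With 1 group no quasi-likelihood test was possible. Poisson intervals are at 95%. Orderings of the 8 genes were described, not tested.

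The genes and lists were chosen with earlier results of these data known. Named besides the 8 genes were the highest and lowest gene of each list by exonic TPM, genes with 0 counts, genes with a log2 ratio above 1 in size that passed the test, and the 2 nearest genes of each. Alternatives were the length, the replicates, the filters, the added count and the scaling. The longest coding transcript as length was added after the data had been seen.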

Additional observations from a re-analysis of the deposited data

How the results depend on the processing

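Length was the choice that moved most values. The median level of the 8 genes was 91.6 TPM with span length, 233 TPM with exonic length, 221 TPM with the longest coding transcript (added after the data had been seen) and 447 CPM, and 89.0 to 95.1 TPM with either replicate left out. The number of neighbouring pairs set apart in the order was 4 with span length, 2 with exonic length, 2 with the coding transcript and 6 in CPM; with 1 replicate no spread remained, so it gave no value. The log2 ratio of Stag2 over Stag1 was 2.57 with span length, 1.24 with exonic length, 1.27 with the coding transcript and 1.27 in CPM, and 2.53 to 2.60 with either replicate left out. The median percentile of the 8 genes was 84.2 with span length, 92.2 with exonic length, 91.7 with the coding transcript and 96.6 in CPM. It was 89.5 among all genes with a count, 77.6 among genes of at least 5 TPM, and 83.9 to 84.4 with either replicate left out.

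In CPM, Rad21 over Smc3 reversed to −0.24 and Nipbl over Smc3 to 0.21, since no length is divided out. With the GC trend the log2 ratio between replicates reversed for Smc3 (−0.0061) and Stag2 (−0.039). Ctcf passed the replicate test with TMM sizes (0.28), DESeq2 size factors (0.36) and the GC trend (0.25), but not with library totals or under either count filter. Of the 8 genes 7 or 8 differed between replicates under every alternative run, where 45.6 to 60.8% of all genes differed with library totals, TMM sizes or the GC trend, and 88.0% of genes counted as often as these with library totals. Over 43 results and 235 alternative values, 121 kept their direction and their side of the threshold (untested values within the replicate spread, counts within 1.5 times), 107 moved, 4 reversed and 3 gained a call. No paired analysis was possible because there is only 1 group of samples. Precision is limited by n = 2, and for Ctcf with library totals the spread was not set apart from counting error.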
